A study of Mus musculus with 19 samples.

Results

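Calcineurin is the phosphatase through which calcium signals reach the NFAT transcription factors, and the data give the RNA of 9 of its genes in the quadriceps of AR113Q mice. The genes were the catalytic subunits Ppp3ca and Ppp3cb, the regulatory subunit Ppp3r1, the inhibitors Rcan1 and Rcan2 and the transcription factors Nfatc1, Nfatc2, Nfatc3 and Nfatc4. They were chosen by name, with earlier results of these data known. This took 13 of the 39429 probes on the array, and all 13 were among the 32026 probes that were tested. AR113Q mice carry an androgen receptor with an expanded polyglutamine tract, knocked into the mouse gene, and model spinal and bulbar muscular atrophy (SBMA). Congenic C57Bl6J males, AR113Q or wild type (CTR), were given chow (NCD, the normal diet of the labels) or high-fat food (HFD) from 40 days of age and were killed at 180 days. The quadriceps RNA of each sample was hybridised to its own one-colour Agilent array, which made 5 arrays of each AR113Q group, 5 of CTR-NCD and 4 of CTR-HFD. The knock-in is not limited to muscle, so other tissues of these males carry the same receptor.

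In skeletal muscle, calcium that binds calmodulin activates calcineurin, which is a dimer of a catalytic and a regulatory subunit. Active calcineurin removes phosphates from NFAT proteins, which then enter the nucleus, while kinases such as GSK3 and DYRK return the phosphates and send NFAT out again. The pathway is known for its part in keeping slow, oxidative fibers, and Rcan1 is both an inhibitor of calcineurin and a target of NFAT. The arrays measured RNA, and neither calcineurin activity nor the place of NFAT in the cell.

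The promoters of the 3 genes with lower probes, and the NFAT-responsive internal start of Rcan1, are shown so that the letters of the NFAT core can be read in them. Each runs from 250 bases before to 50 bases after a RefSeq start on GRCm38.p6, 5′ to 3′ on the strand of the gene, and capitals mark GGAAA or its reverse complement TTTCC. Ppp3cb lies on the minus strand at chr14:20546524-20546823, Ppp3r1 on the plus strand at chr11:17159048-17159347, the first start of Nfatc3 on the plus strand at chr8:106058568-106058867 and the second start of Rcan1 on the minus strand at chr16:92400029-92400328.
Ppp3cb: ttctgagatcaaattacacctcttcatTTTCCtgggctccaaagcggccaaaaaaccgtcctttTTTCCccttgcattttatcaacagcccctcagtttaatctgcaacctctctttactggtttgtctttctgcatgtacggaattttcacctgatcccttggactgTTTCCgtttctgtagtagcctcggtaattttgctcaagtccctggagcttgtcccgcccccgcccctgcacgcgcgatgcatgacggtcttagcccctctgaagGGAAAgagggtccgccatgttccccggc
Ppp3r1: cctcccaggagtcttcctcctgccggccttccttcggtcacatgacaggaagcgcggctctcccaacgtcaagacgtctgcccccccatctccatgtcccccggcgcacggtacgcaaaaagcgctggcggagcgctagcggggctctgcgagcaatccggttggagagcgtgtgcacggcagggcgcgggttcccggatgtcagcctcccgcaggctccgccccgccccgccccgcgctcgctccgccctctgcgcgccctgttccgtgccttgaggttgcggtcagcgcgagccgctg
Nfatc3, first start: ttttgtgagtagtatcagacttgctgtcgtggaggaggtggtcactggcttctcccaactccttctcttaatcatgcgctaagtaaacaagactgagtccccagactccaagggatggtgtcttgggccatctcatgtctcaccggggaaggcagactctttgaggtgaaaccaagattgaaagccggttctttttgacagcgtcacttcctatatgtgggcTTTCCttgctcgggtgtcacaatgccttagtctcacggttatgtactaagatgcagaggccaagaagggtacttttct
Rcan1, second start: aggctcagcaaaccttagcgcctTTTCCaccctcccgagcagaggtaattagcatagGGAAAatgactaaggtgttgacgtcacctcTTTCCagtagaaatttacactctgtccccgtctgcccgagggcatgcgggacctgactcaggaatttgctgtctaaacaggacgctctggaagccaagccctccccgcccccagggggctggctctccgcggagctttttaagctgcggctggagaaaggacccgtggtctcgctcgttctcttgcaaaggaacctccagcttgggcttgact

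The Ppp3cb window held 4 matches of the NFAT core, the Ppp3r1 window 0, the first Nfatc3 window 1 and the Rcan1 window 3. Of all 32841 promoters of this length, 61.4% held at least 1 match, 9.42% at least 3 and 2.65% at least 4, so a match is common. The other windows of the family held 0 (the second Nfatc3 start and the first Rcan1 start), 3 and 1 (Nfatc2), 3 (Nfatc4) and 2, 0 and 0 matches (Rcan2). RefSeq windows of Ppp3ca and Nfatc1 were not in the table used here. The androgen receptor half-site TGTTCT, searched on both strands, was in 0 of the windows of these genes and in 19% of all promoters.

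Signals are log2 intensities relative to the 75th percentile of the same array, so 0 is the level of that percentile. They compare samples for 1 probe and not probes with each other. All 13 probes were well above background and none was saturated on any of the 19 arrays, of which 67.1% to 80.1% of probes were well above background. Differences were tested with limma over all 4 groups, and a probe was called at an adjusted p under 0.05. The 5 slides each held 1 array of every group, except that CTR-HFD had no array on slide 4. The labels do not say that the samples of a group are separate mice, and p-values then measure only the spread between these samples.

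**Figure D1:**
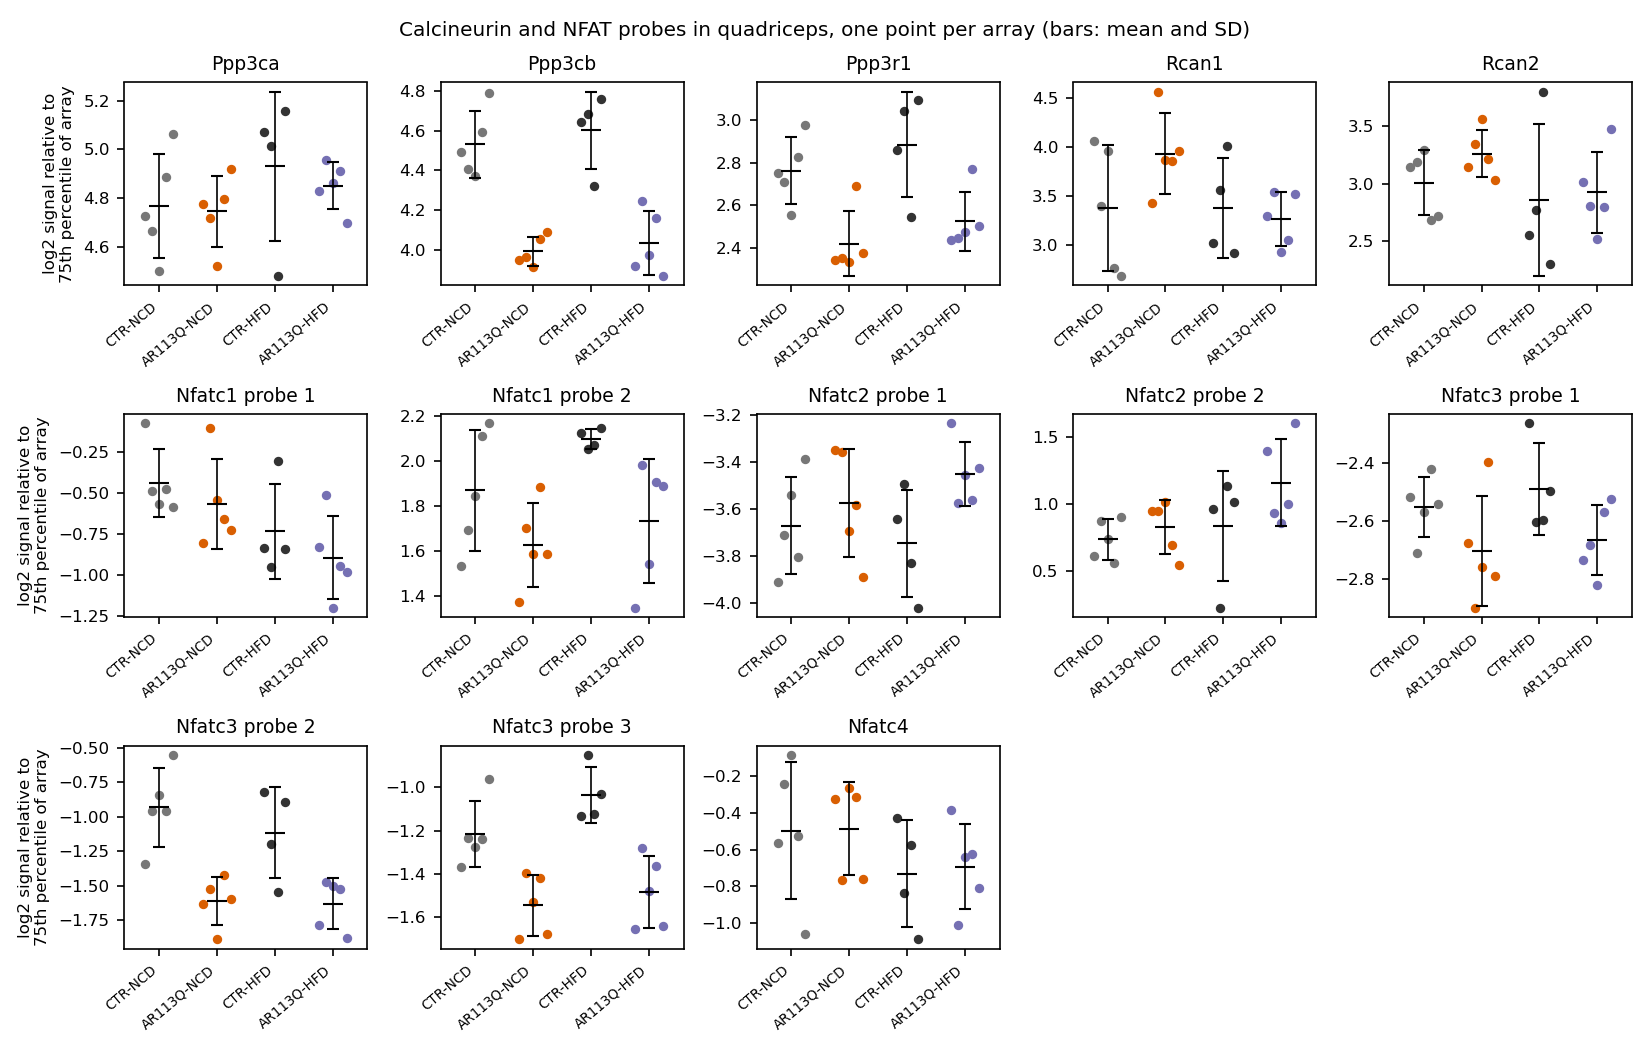
Log2 signal relative to the 75th percentile of the array (vertical axis, a separate range for each probe) of the 13 probes in the 4 groups. Each point is 1 array in replicate order, and bars give the mean and the SD. For Ppp3cb, the AR113Q arrays lie between 3.87 and 4.25 and the CTR arrays between 4.32 and 4.79.

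On the NCD, 4 of 13 probes, from 3 genes, were lower in AR113Q than in CTR quadriceps, and 0 were higher. Of all probes tested, 9.28% were called lower and 8.29% higher in this comparison. The share called lower was larger among bright probes, as given below for the classes of Ppp3cb and Ppp3r1. On the HFD, which shares no array with the former comparison, the lower probes were again 4 of 13 and 0 were higher, against 9.93% lower and 8% higher over all probes. The 4 probes were those of Ppp3cb and Ppp3r1 and probes 2 and 3 of Nfatc3 on both diets. The median log2 fold change of the 13 probes was -0.13 on the NCD and -0.16 on the HFD, beside -0.05 and -0.07 over all probes. Averaged over both diets, the second Nfatc1 probe joined them, which made 5 of 13 lower and 0 higher, against 16% and 13.3% over all probes.

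**Figure D2:**
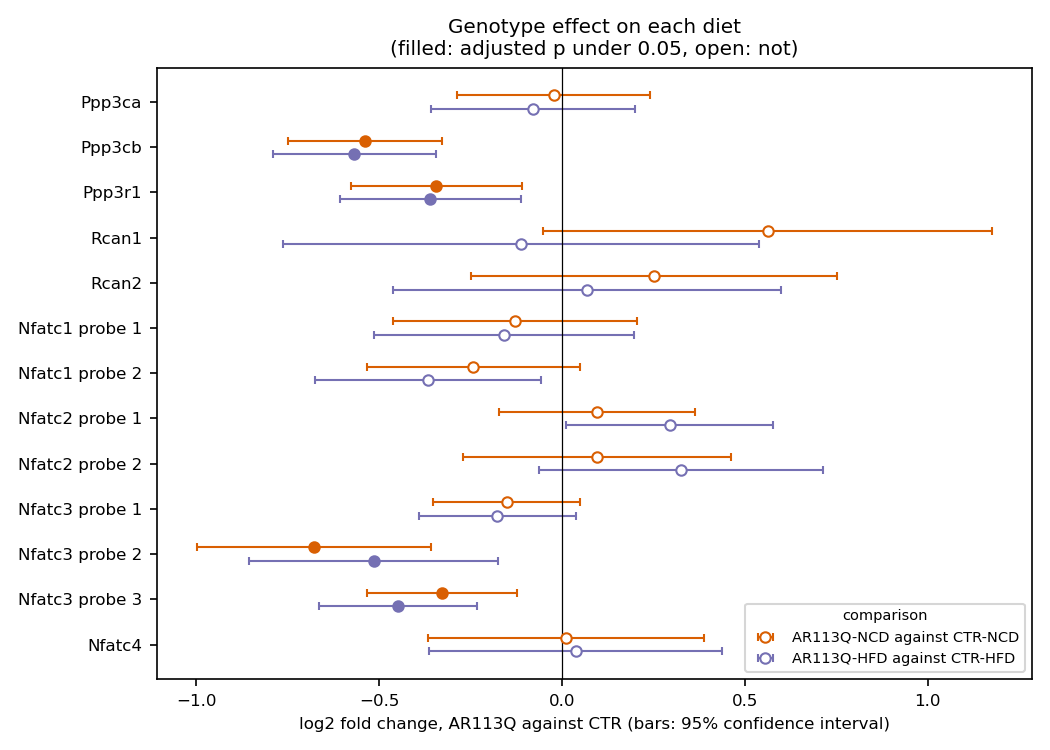
Log2 fold change of AR113Q against CTR (horizontal axis) on the NCD and on the HFD for each probe, with its 95% confidence interval. Filled points passed an adjusted p under 0.05 and open points did not. Ppp3cb, Ppp3r1 and Nfatc3 probes 2 and 3 are filled on both diets, while Ppp3ca lies near 0 on both.

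Ppp3cb, the beta form of the catalytic subunit (NM_008914), was read by a probe at chr14:21319265-21319324 on the minus strand of mm9. Its signals were 4.49, 4.41, 4.37, 4.59 and 4.79 in CTR-NCD and 3.95, 3.96, 3.91, 4.05 and 4.09 in AR113Q-NCD. On the HFD they were 4.64, 4.68, 4.32 and 4.76 in CTR and 3.92, 4.25, 3.97, 4.16 and 3.87 in AR113Q. Every AR113Q array lay below every CTR array, whichever the diet. Within a diet, arrays apart in this direction were found for 8.26% of all probes on the NCD and 8.28% on the HFD. The share of probes apart over both diets together is not given here. On the log2 scale Ppp3cb fell by 0.54 on the NCD (SE 0.10, 0.688-fold, limma adjusted p = 0.00109) and by 0.57 on the HFD (SE 0.11, 0.674-fold, limma adjusted p = 0.00112). Within slides it was lower on 5 of 5 slides on the NCD, with differences from -0.71 to -0.45, and on 4 of 4 on the HFD, from -0.89 to -0.34. From high to low, the group means were 4.60 ± 0.19 in CTR-HFD (SD, n = 4), 4.53 ± 0.17 in CTR-NCD (n = 5), 4.03 ± 0.16 in AR113Q-HFD (n = 5) and 3.99 ± 0.07 in AR113Q-NCD (n = 5). The neighbours of the same genotype in this order differed by less than the spread between arrays.

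With median centring in place of the 75th percentile, the Ppp3cb difference was -0.48 and -0.50 and its adjusted p was 0.0585 and 0.0612. With normexp background correction it was -0.25 and -0.60, with adjusted p of 0.182 and 0.0641. Normexp moved the median of all probes to -0.55 on the NCD, and relative to that median Ppp3cb was 0.30 higher there.

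Ppp3ca, the alpha form of the catalytic subunit, was not called on either diet. Its signals ranged from 4.50 to 5.06 in CTR-NCD, with a median of 4.73, and from 4.52 to 4.92 in AR113Q-NCD, with a median of 4.77. On the HFD they ranged from 4.48 to 5.16 in CTR and from 4.70 to 4.96 in AR113Q. The groups overlapped on both diets. The difference was -0.02 on the NCD (95% interval -0.29 to 0.24) and -0.08 on the HFD (-0.36 to 0.20).

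The comparison of these 2 probes was made after their values were seen and is given without a test. Taking the Ppp3ca signal from the Ppp3cb signal within each array gave -0.24 ± 0.06 in CTR-NCD (SD, n = 5) and -0.75 ± 0.09 in AR113Q-NCD (n = 5). On the HFD it gave -0.33 ± 0.12 in CTR (n = 4) and -0.82 ± 0.09 in AR113Q (n = 5). The sizes say nothing of which form is more abundant, since the probes differ. The highest AR113Q array, at -0.61, lay below the lowest CTR array, at -0.43. The share of other probe pairs that lie apart in this way is not given here. This shift of -0.52 on the NCD and -0.49 on the HFD cannot depend on a constant taken from each array, and it was -0.52 and -0.49 with normexp and -0.55 and -0.51 in the deposited log2 table.

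**Figure D3:**
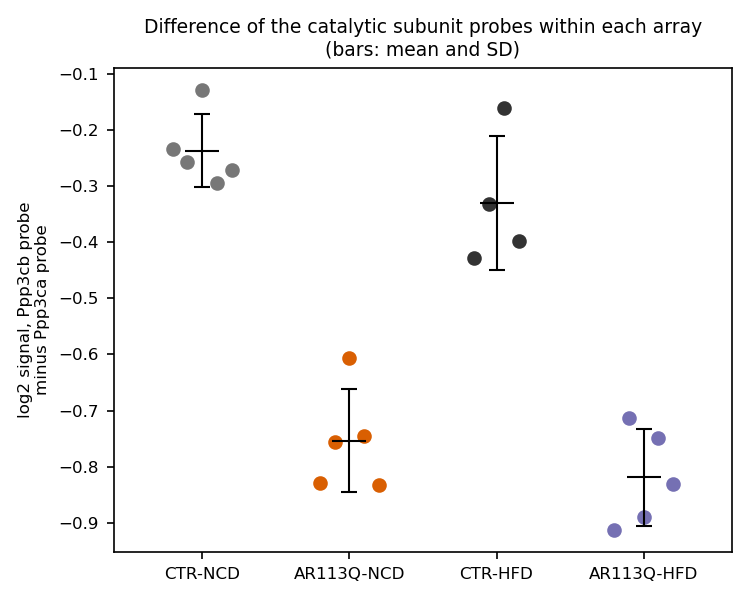
Log2 signal of the Ppp3cb probe minus that of the Ppp3ca probe (vertical axis) within each array of the 4 groups. Points are arrays, and bars give the mean and the SD. The AR113Q arrays lie between -0.91 and -0.61 and the CTR arrays between -0.43 and -0.13.

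Ppp3r1, the calcium-binding regulatory subunit (NM_024459), was read at chr11:17100263-17100322 on the plus strand of mm9. Its signals were 2.75, 2.71, 2.55, 2.83 and 2.98 in CTR-NCD and 2.34, 2.35, 2.33, 2.69 and 2.38 in AR113Q-NCD. Under the HFD they were 2.86, 3.04, 2.55 and 3.1 in CTR and 2.44, 2.45, 2.47, 2.77 and 2.50 in AR113Q. The fourth AR113Q array of each diet stood above the other 4, and the groups overlapped on both diets through these arrays. Ppp3r1 fell by 0.34 on the NCD (SE 0.11, 0.787-fold, limma adjusted p = 0.0396) and by 0.36 on the HFD (SE 0.12, 0.779-fold, limma adjusted p = 0.0418). It was lower within all 5 slides on the NCD, by -0.60 to -0.14, and within all 4 on the HFD, by -0.59 to -0.07.

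The Ppp3r1 calls lay near the threshold. On the NCD the call was lost without any 1 of CTR-NCD replicates 1, 2, 4 and 5 or AR113Q-NCD replicates 1, 2, 3 and 5, with a limma adjusted p from 0.0558 to 0.106. On the HFD it was lost without any 1 of CTR-HFD replicates 1, 2 and 4 or AR113Q-HFD replicates 1, 2, 3 and 5, from 0.0739 to 0.139. It was also lost without some single arrays of the NCD, which enter the fit through the shared spread, with an adjusted p of up to 0.0520. Relative to the normexp median on the NCD, Ppp3r1 was 0.46 higher.

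Contractile and fast fiber markers were mostly lower as well, while 0 of 12 slow fiber genes, given below, were called lower on either diet. Of 8 contractile and fast fiber markers (Acta1, Ckm, Myh4, Tnnt3, Des, Actn3, Pvalb, Tnni2), 7 were called lower in AR113Q on each diet. Of all genes, each by 1 probe, 9.04% were called lower on the NCD and 10.2% on the HFD. Des gave -0.05 on the NCD and was higher on the HFD by 0.32. On the NCD the mean level of the 8 markers ranged from 8.61 to 8.82 in CTR and from 8.20 to 8.37 in AR113Q. On the HFD it ranged from 8.61 to 8.78 in CTR and from 8.14 to 8.35 in AR113Q, so the genotypes did not overlap. With quantile normalization their median difference was -0.01 on the NCD and -0.02 on the HFD and 2 of 8 were called lower. Under the same setting Ppp3cb was -0.45 and -0.44, with a limma adjusted p of 0.000921 and 0.00187, and Ppp3r1 was -0.32 and -0.29, with 0.0341 and 0.0650. The part of the fiber markers in the subunit results was not tested, and fewer cells of a type and less RNA per cell cannot be told apart in whole muscle. The Ppp3cb probe was also among the brightest 10% of probes. Of these, 23.1% were lower and 6.4% higher on the NCD, and 29.4% and 5.28% on the HFD. The Ppp3r1 probe, at percentile 86.9 of mean signal, was in the class just below them. Of that class, 18% were lower and 12.7% higher on the NCD, and 20.1% and 11% on the HFD. Of 6 endothelial, 6 T cell, 6 macrophage, 6 white adipocyte and 6 smooth muscle markers tested, 0 were called on either diet with limma. Lum of 5 fibroblast markers was higher on both diets, and on the NCD S100b of 5 Schwann cell markers and Calcr of 3 satellite cell markers were higher and Cdh15 lower. Of the satellite cell markers, Pax7 was well above background on 19 arrays and was not called, and Myf5 on 0 arrays.

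The RCAN inhibitors varied more between arrays of a group than the subunits did, and neither was called. Rcan1 had signals of 4.06, 3.40, 3.96, 2.76 and 2.68 in CTR-NCD and 3.42, 4.57, 3.86, 3.85 and 3.96 in AR113Q-NCD. With the HFD the signals were 3.01, 3.56, 4.01 and 2.91 in CTR and 3.29, 3.54, 2.92, 3.04 and 3.52 in AR113Q. The groups overlapped on both diets, and the 2 lowest arrays were CTR-NCD replicates 4 and 5. The difference was 0.56 on the NCD (95% interval -0.05 to 1.18, limma adjusted p = 0.221) and -0.11 on the HFD (-0.76 to 0.54). Rcan2, the related inhibitor, gave 0.25 on the NCD (-0.25 to 0.75) and 0.07 on the HFD (-0.46 to 0.60). Its lowest CTR-NCD arrays were again replicates 4 and 5, at 2.69 and 2.72, and its highest array of all was CTR-HFD replicate 3, at 3.80.

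Some of the arrays with extreme RCAN signals were extreme in slow fiber genes as well, while for Rcan1 others were not. The mean level of the 12 slow fiber genes given below was 1.64 and 2.54 in CTR-NCD replicates 4 and 5, against 3.70 to 4.83 in the other 3. It was 5.32 in CTR-HFD replicate 3, against 0.25 to 2.49 in the other 3. In AR113Q-HFD, replicate 3 had the lowest Rcan1 signal, Rcan2 signal and slow fiber level, at 2.92, 2.52 and 1.60. Replicate 5 of that group had the highest Rcan2 signal, at 3.47, and the highest slow fiber level, at 4.76. In contrast, AR113Q-HFD replicate 2, with the highest Rcan1 signal of its group at 3.54, had a slow fiber level of 2.09, below 3 of the other 4, and CTR-HFD replicate 2, with an Rcan1 signal of 3.56, had 1.40. CTR-HFD replicate 3 also had the lowest Ppp3ca, Ppp3cb and Ppp3r1 signals of its group. Without it, the HFD difference was -0.66 for Ppp3cb, -0.47 for Ppp3r1, 0.10 for Rcan1 and 0.38 for Rcan2, and the limma adjusted p of Rcan2 was 0.221. The part of fiber composition in the RCAN signals was not tested.

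Among the NFAT factors, Nfatc3 was the gene with called probes on each diet. Its 3 probes were at chr8:108615965-108616024, chr8:108643263-108643322 and chr8:108654316-108654375 on the plus strand of mm9. They are called probes 1, 2 and 3 here. Probes 1 and 3 were designed on NM_010901, and probe 2 on the transcript EU887629, which the design names as isoform IB-Xa. Which exon or UTR each covers was not analysed here.

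Nfatc3 probe 2 had signals of -1.35, -0.96, -0.85, -0.96 and -0.55 in CTR-NCD and -1.63, -1.52, -1.89, -1.42 and -1.59 in AR113Q-NCD. The HFD signals were -0.82, -1.20, -1.54 and -0.90 in CTR and -1.78, -1.47, -1.50, -1.52 and -1.87 in AR113Q. The groups were apart on the NCD and overlapped on the HFD, where CTR-HFD replicate 3 lay within the AR113Q range. The probe fell by 0.68 on the NCD (SE 0.15, 0.625-fold, limma adjusted p = 0.00472) and by 0.52 on the HFD (SE 0.16, 0.700-fold, limma adjusted p = 0.0344). It was lower within 5 of 5 slides on the NCD and 3 of 4 on the HFD, where slide values ran from -0.98 to 0.04. On the HFD the call was lost without any 1 of CTR-HFD replicates 1, 2 and 4 or AR113Q-HFD replicates 1 and 5, with a limma adjusted p from 0.0554 to 0.121.

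Nfatc3 probe 3 had signals of -1.37, -1.24, -1.27, -1.24 and -0.96 in CTR-NCD and -1.70, -1.40, -1.53, -1.42 and -1.68 in AR113Q-NCD. On the HFD they were -1.13, -0.85, -1.12 and -1.03 in CTR and -1.65, -1.28, -1.48, -1.37 and -1.64 in AR113Q. Both diets had the AR113Q arrays below all CTR arrays of that diet. The probe fell by 0.33 on the NCD (SE 0.10, 0.796-fold, limma adjusted p = 0.0251) and by 0.45 on the HFD (SE 0.10, 0.732-fold, limma adjusted p = 0.00519). On the NCD the call was lost without CTR-NCD replicate 5 or AR113Q-NCD replicate 1 or 5, at an adjusted p from 0.0665 to 0.0725. Within slides the probe was lower on 5 of 5 and 4 of 4.

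Nfatc3 probe 1 was negative as well, at -0.15 on the NCD (95% interval -0.35 to 0.05, limma adjusted p = 0.332) and -0.18 on the HFD (-0.39 to 0.04, limma adjusted p = 0.273), and its groups overlapped. With the slide as a block the HFD difference was -0.22 and was called (limma adjusted p = 0.0472), and in the deposited log2 table it was -0.32 (0.0166). So 2 of 3 probes of the gene were called, without a block, and the interval of probe 1 includes 0. Relative to the normexp median on the NCD, the 3 probes gave -0.10, -0.15 and 0.03.

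Nfatc1, the factor most often tied to slow fibers, had a probe for transcript variant 1 and a probe for variant 2, here the first and the second. The second probe had signals of 1.54, 1.69, 1.84, 2.11 and 2.17 in CTR-NCD and 1.37, 1.70, 1.59, 1.89 and 1.59 in AR113Q-NCD. Under the HFD they were 2.13, 2.06, 2.07 and 2.15 in CTR and 1.35, 1.98, 1.54, 1.91 and 1.89 in AR113Q. The HFD groups were apart, and the NCD groups overlapped. The difference was -0.24 on the NCD (95% interval -0.53 to 0.05, limma adjusted p = 0.276) and -0.37 on the HFD (-0.68 to -0.06, limma adjusted p = 0.101). On the HFD it was called with the slide as a block, at -0.42 (limma adjusted p = 0.0112), and with the replicate number as a block, at -0.40 (0.0219). Averaged over both diets it was -0.30 (SE 0.10, limma adjusted p = 0.0304). That call was lost without any 1 of CTR-NCD replicates 4 and 5, AR113Q-NCD replicate 1, CTR-HFD replicates 1 and 4 or AR113Q-HFD replicates 1 and 3, at an adjusted p from 0.0515 to 0.0573. The first probe gave -0.13 on the NCD (-0.46 to 0.21) and -0.16 on the HFD (-0.51 to 0.20).

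Nfatc2 and Nfatc4 were not called on any diet. Nfatc2, known best from T cells and from myotube growth, gave 0.10 and 0.09 on the NCD with its 2 probes. On the HFD they gave 0.29 (95% interval 0.01 to 0.58, limma adjusted p = 0.155) and 0.32 (-0.06 to 0.71, limma adjusted p = 0.268). Nfatc4 gave 0.01 on the NCD (-0.37 to 0.39) and 0.04 on the HFD (-0.36 to 0.44). In each case the arrays of the groups overlapped.

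The diet moved none of the 13 probes past the threshold. Between AR113Q-HFD and AR113Q-NCD, 0 of 13 were called with limma, beside 0.025% of all probes, and 1 had an unadjusted p under 0.05. That probe was Rcan1, whose AR113Q-HFD signals of 2.92 to 3.54 overlapped the AR113Q-NCD signals of 3.42 to 4.57. Its difference was -0.67 (95% interval -1.29 to -0.06, limma adjusted p = 0.703), and it was negative within 5 of 5 slides, from -1.03 to -0.13. The first Nfatc1 probe and Nfatc4 were also negative within 5 of 5 slides, and Ppp3r1 and Nfatc3 probe 3 were positive within 5 of 5. Slow fiber levels ranged from 4.93 to 5.75 in AR113Q-NCD and from 1.60 to 4.76 in AR113Q-HFD. Of the 12 slow fiber genes, 0 were called between these groups, and a link with Rcan1 was not tested. Between CTR-HFD and CTR-NCD, 0 of 13 were called with limma, beside 0% of all probes, and 0 had an unadjusted p under 0.05. Ppp3cb differed by 0.04 between the diets in AR113Q (-0.17 to 0.25) and by 0.07 in CTR (-0.15 to 0.29).

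The genotype effect did not differ detectably between the diets. For the interaction, 0 of 13 probes were called with limma, beside 0% of all probes, 0 had an unadjusted p under 0.05, and the adjusted p was 1.0 for each. The difference between the genotype effects was -0.03 for Ppp3cb (95% interval -0.34 to 0.28), -0.02 for Ppp3r1 (-0.36 to 0.33) and 0.16 and -0.12 for Nfatc3 probes 2 and 3. It was widest for Rcan1, at -0.67 (-1.57 to 0.22).

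Around these genes, the list of other calcineurin subunits and regulators held the most calls. The lists were chosen with earlier results of these data known, so their counts are a description. Of all 24741 genes, each by 1 probe, 9.04% were lower and 8.31% higher on the NCD, and 10.2% and 7.74% on the HFD, with medians of -0.06 and -0.08. Of the 19 genes of the list, 18 were tested, and on the NCD 8 were lower and 1 higher, with a median of -0.15. On the HFD 9 were lower and 2 higher, with a median of -0.33. Fbxo32, the muscle ubiquitin ligase atrogin-1, fell by 1.76 on the NCD and 1.69 on the HFD (limma adjusted p = 1.17e-05 and 3.03e-05). Myoz1, a Z-disc protein that binds calcineurin, fell by 0.81 and 0.80, and the scaffold gene Homer1 fell by 0.83 and 0.86, with all 5 of its probes called lower on both diets. Also lower on the NCD were Calm2 at -0.49, Calm3 at -0.41, Myoz3 at -0.65 and Ppp3cc, the remaining catalytic subunit, at -0.25, and they are named here after their values were seen. Each of these 4 was also called lower on the HFD. With normexp, Calm2 and Calm3 were not called on the NCD, at an adjusted p of 0.349 and 0.507, and with median centring they were not called on either diet. Cabin1, an inhibitor of calcineurin, was higher by 0.43 and 0.69 with 1 of its 2 probes, while the other gave 0.28 and 0.20 and was not called. In the deposited log2 table, which held 12 of these genes, the median of the list was 0.14 on the NCD and 0.08 on the HFD.

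The NFAT kinases had 4 lower genes and 1 higher among 12 on each diet, with medians of -0.24 and -0.20 beside -0.06 and -0.08 over all genes. Gsk3a fell by 0.39 on the NCD and 0.54 on the HFD (limma adjusted p = 0.00115 and 0.000114). Dyrk2 fell by 0.57 and 0.56, and Mapk9, a JNK kinase, by 0.38 and 0.41. Dyrk1a was higher by 0.38 and 0.39 with its brightest probe and by 0.41 and 0.44 with another, but its remaining probe was lower on the NCD by -0.66 (limma adjusted p = 0.0148) and gave -0.19 on the HFD. With median centring the list had 1 lower and 1 higher on the NCD, and the calls of Gsk3a and Mapk9 were lost there (adjusted p = 0.126 and 0.260).

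Of 8 calcium entry genes tested, Stim2, a sensor of calcium stores, was called on the NCD, where it fell by 0.65 (limma adjusted p = 0.00130). It gave -0.17 on the HFD (limma adjusted p = 0.435), and 0 genes of this list were called there. Of 10 partner factors of NFAT, Hdac5 was higher on the NCD by 0.26 and Fos by 1.27 (limma adjusted p = 0.0173 and 0.0242), and 0 were called on the HFD, where they gave 0.17 and -0.06. None of the interactions of these genes with diet was called with limma. With normexp, the NCD calls of Myoz1, Gsk3a, Mapk9, Stim2, Hdac5 and Fos were lost, at an adjusted p from 0.107 to 0.591.

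The slow fiber genes known to depend on calcineurin showed large differences with wide error. Of 12, only Casq2, the slow and cardiac calsequestrin, was called on each diet. Of all genes, 8.31% were called higher on the NCD and 7.74% on the HFD, so 1 of 12 is near that share. Casq2 was higher by 2.01 on the NCD (SE 0.44, limma adjusted p = 0.00414) and by 2.0 on the HFD (SE 0.47, limma adjusted p = 0.00611). Averaged over both diets, 2 of 12 were called higher, beside 13.3% of all probes. The median of the list was 2.01 on the NCD and 0.94 on the HFD. Myh7, the slow myosin heavy chain, gave 2.55 (SE 1.51) and 1.89 (SE 1.60), and Tnni1, the slow troponin I, gave 2.44 (SE 1.09) and 1.13 (SE 1.16). The mean level of the list ranged from 1.64 to 4.83 in CTR-NCD and from 4.93 to 5.75 in AR113Q-NCD, without overlap. It ranged from 0.25 to 5.32 in CTR-HFD and from 1.60 to 4.76 in AR113Q-HFD, with overlap.

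**Figure D4:**
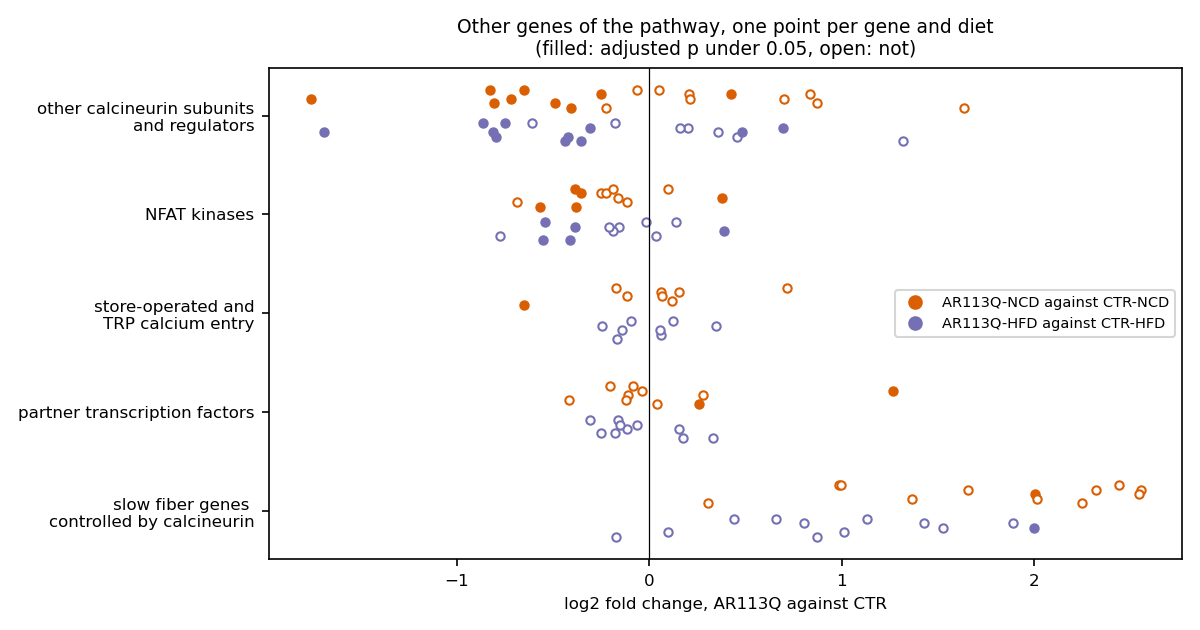
Log2 fold change of AR113Q against CTR (horizontal axis) for the genes of 5 lists around calcineurin and NFAT, with 1 point for each gene and diet. Filled points passed an adjusted p under 0.05 and open points did not. Fbxo32, at -1.76 and -1.69, is the leftmost point of the first list, and Casq2, at 2.01 and 2.0, is the filled point of the slow fiber list.

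The genes whose signals followed Ppp3cb most closely over the 19 arrays were Rab2a (Pearson r = 0.991), Tmod4 (0.987), Lrrc28 (0.985), Nt5dc3 (0.985) and Phkg1 (0.984). Rab2a is a small GTPase of transport between the endoplasmic reticulum and the Golgi, Tmod4 a cap of thin filaments in skeletal muscle and Phkg1 the muscle catalytic subunit of phosphorylase kinase. The arrays share the split by genotype, and these r values are a description. Rab2a gave -0.72 on the NCD and -0.69 on the HFD, and Phkg1 -0.68 and -0.70, beside the -0.54 and -0.57 of Ppp3cb.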

How the data were processed

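Each sample was labelled with Cy3 and read on an Agilent mouse 4X44K array. Per the file headers and the labels, the authors made the spot intensities with Agilent Feature Extraction 10.7.3.1, with local background subtraction and detrending and no normalization between arrays. The authors also deposited a table of log2 values (25944 rows, column medians from 7.59 to 7.65), whose normalization is not given in the sources used here. It was used as an alternative, and each of its columns matched its own array best, for 19 of 19 arrays.

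Here, control spots (leaving 43020) and outlier flags were left out, and processed signals were taken to log2. Spots of a probe were averaged, and arrays were scaled to a common 75th percentile. Before scaling, that log2 percentile ranged from 9.52 to 9.75 in CTR-NCD and from 9.65 to 10.05 in AR113Q-NCD. On the HFD it ranged from 9.51 to 9.86 in CTR and from 9.86 to 10.18 in AR113Q. The scaling thus took more from most AR113Q arrays, and its part in the differences was not tested. Testing required a probe to have 0.5 or more of its spots well above background in no fewer than 4 of the 19 arrays. The 4 groups, taken from the labels, were fitted in limma 3.58.1 (R 4.3.3) with empirical Bayes and Benjamini-Hochberg adjustment over 32026 probes. The fit was tested on simulated data. The number of arrays limits the precision. The genes and lists were chosen with earlier results of these data known. Of each list, up to 4 genes with the smallest adjusted p on the NCD were named, by the probe with the highest mean signal. One gene that this rule names is not reported here. Replicate numbers were not taken as pairs, since only 20 of 27 same-numbered pairs had deviations correlated above 0.1 and the labels do not say what a number marks. Of the pairs on 1 slide, 23 of 27 had, with a median of 0.27, against -0.09 for pairs on different slides. The main fit held no block, and the slide was fitted as a block only as an alternative. Alternatives changed the scaling, background correction, filter, blocks, weights and arrays. Promoters are from RefSeq tables of GRCm38.p6 (7 of 9 genes matched), and matplotlib 3.10.9 (Python 3.11.15) drew the figures.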

Additional observations from a re-analysis of the deposited data

Results flagged for a closer look

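In 3 of 52 groups of member signals, 1 array stood far from the others of its group, and chance gives about 1 such group in 20. Ppp3r1 was 2.69 in AR113Q-NCD replicate 4, while the nearest of the other 4 arrays was 2.38. Ppp3r1 was 2.77 in AR113Q-HFD replicate 4, while the nearest was 2.50. These arrays lay on the same slide. The first Nfatc1 probe was -0.0761 in CTR-NCD replicate 1, while the nearest array was -0.48.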

How the results depend on the processing

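The number of called probes among the 13 changed with the scaling, the background correction, the threshold and the arrays in the fit. On the NCD the 4 lower probes became 0 with median centring, 0 with normexp and 0 with fold thresholds added (at least 1.5 or at most 0.6). On the HFD the 4 became 2 with quantile normalization, 0 with median centring, 0 with normexp, 2 in the authors' values (Ppp3cb and Nfatc3 probe 1, in a table without Nfatc3 probe 3), 2 when only the compared arrays were fitted and 0 with fold thresholds. Averaged over both diets the 5 became 3 with median centring, 2 with normexp and 0 with fold thresholds. Leaving out 1 array at a time gave 2 to 4 on the NCD, 2 to 4 on the HFD and 4 to 6 averaged. The count was 2 on the NCD without CTR-NCD replicate 5 or AR113Q-NCD replicate 1 or 5, and 2 on the HFD without CTR-HFD replicate 1, 2 or 4 or AR113Q-HFD replicate 1 or 5. The cause of these changes was not tested. No called probe changed sign under any alternative. Ppp3cb was called in 28 of 30 alternatives on each diet, with an adjusted p from 0.000313 to 0.182 on the NCD and from 0.000264 to 0.0641 on the HFD. Of the 30, Ppp3r1 was called in 19 on the NCD and 11 on the HFD. Normexp put the median of all probes at -0.55, -0.02 and -0.31 in these comparisons. Of all called probes on the HFD, 55.4% were lower, against 39% with median centring, 43.3% with quantile normalization and 43% in the authors' values. With the replicate block, 4 probes were called on the NCD, 5 on the HFD and 6 averaged, and with the slide block 4, 6 and 6. Both blocks kept the calls of Ppp3cb, Ppp3r1 and Nfatc3 probes 2 and 3. Diet and interaction counts stayed at 0 under every alternative.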
